A study of Caenorhabditis elegans with 12 samples.

Results

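Small RNA reads that fell on 7 genes coding for Argonaute proteins were followed through 4 groups of Caenorhabditis elegans libraries. The genes were chosen by name and identifier and not by a threshold on their values, though earlier results of these data were known. They are csr-1 (WBGene00017641), prg-1 (WBGene00004178), rde-1 (WBGene00004323), ppw-1 (WBGene00004093), wago-3, also called ppw-2 (WBGene00004094), alg-1 (WBGene00000105) and alg-2 (WBGene00000106). They are 7 of the 20134 gene identifiers among 75393 counted features, and all 7 passed the filter on low counts. Symbols are those given with the identifiers in that choice, since the table itself holds identifiers only.

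The study sequenced small RNA from whole animals at the L4 larval stage, grown at 15 °C, before and after an immunoprecipitation (IP) with anti-FLAG beads, in 4 groups of 3 libraries (A, B and C). In one strain the CSR-1 protein carries 1 FLAG tag, and its groups are called CSR-1 input and CSR-1 IP. In the other, WAGO-1 carries the FLAG tag and the change P3G, and WAGO-3 carries P2G and A3E, so that wago-3 is itself altered. Its input and its IP are named here by WAGO-1 P3G. Bait, tag and the changes in WAGO-1 and WAGO-3 differ together between the strains, and neither an IP of unchanged WAGO-1 nor an IP from untagged animals was among these libraries. How the alleles were made is not given in the sources used here, and the labels do not say that replicates were separate cultures, so p-values measure only the spread between these libraries. Inputs went through a small RNA enrichment kit (500 ng of total RNA) that was left out for the IPs, and all RNA was treated with a polyphosphatase. In whole animals, fewer cells of a type and less RNA per cell cannot be told apart.

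Argonautes are the proteins that hold small RNAs and use them to find matching transcripts. In C. elegans, RNA-dependent RNA polymerases copy target transcripts into short antisense RNAs, and these secondary small RNAs are loaded either into CSR-1, whose targets are mostly genes expressed in the germline, or into the worm-specific WAGO proteins, which silence genes, transposons and foreign sequences. The transcripts of Argonaute genes can themselves be templates for such RNAs. A read on prg-1 is therefore a small RNA with the sequence of the prg-1 gene or its complement, and not a piRNA carried by the PRG-1 protein. The strand setting of the counting is not given in the sources used here, so sense fragments and antisense small RNAs are not separated.

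By RefSeq's annotation of WBcel235 (ce11), csr-1 spans IV:7957267-7962157, prg-1 I:7585329-7588367, rde-1 V:9987916-9991642, ppw-1 I:4185174-4189935, wago-3/ppw-2 I:5158511-5162232, alg-1 X:13949489-13956261 and alg-2 II:873212-879885. All 7 are annotated as protein-coding. The span of csr-1 overlaps that of frpr-10, that of prg-1 overlaps D2030.12, and that of alg-2 holds 3 noncoding RNA genes, so reads in the shared stretches may be of uncertain origin. alg-1 and alg-2 are close paralogs, as are members of the WAGO branch among themselves, and how reads with several alignments were treated is not given in the sources used here. None of the 55259 counted intervals overlapped a member's span.

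Libraries held 878241 to 1373120 reads per input, 3321443 to 6131378 per CSR-1 IP and 10952884 to 13473204 per WAGO-1 P3G IP, so values in the inputs rest on fewer counts. Levels below are CPM, a gene's counts scaled by the library's reads counted to any feature, with the SD over 3 libraries. Fold changes are log2 values from one edgeR fit of the whole table, with an approximate SE, and they include TMM factors, which adjust for composition. The same fit without TMM factors scales by a library's reads on the tested features, and not by all its reads. A gene is called where the adjusted p of that fit is under 0.05 over all 10822 tested features. Among the CSR-1 IPs, library A was unlike the others: its counts differed from those of B and C with a chi-square per degree of freedom of 8.97 and 7.58, against 1.60 between B and C.

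**Figure D1:**
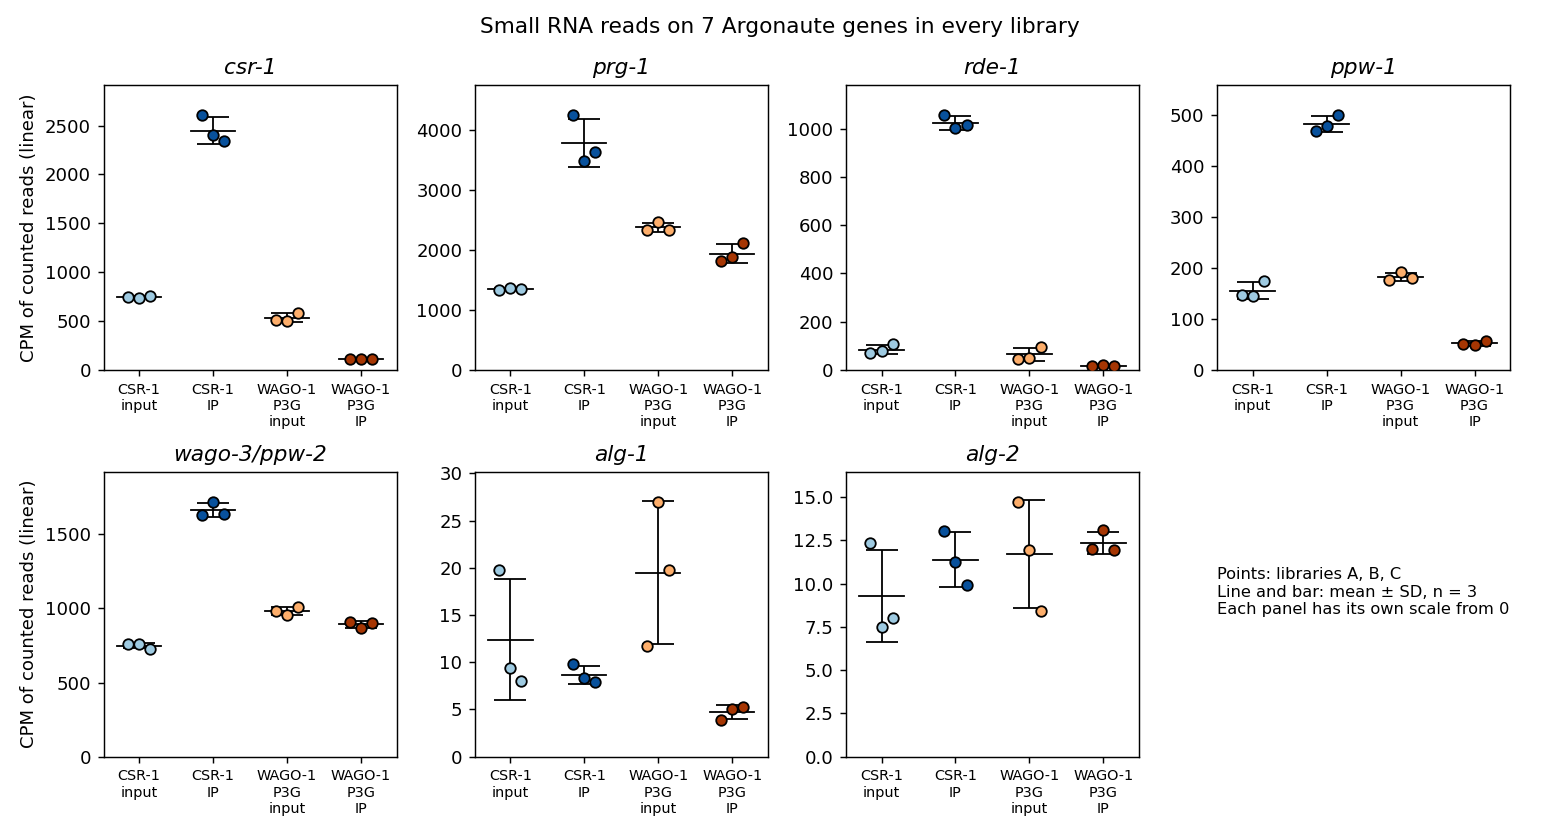
CPM of small RNA reads (linear y axis, each panel with its own scale from 0) on the 7 Argonaute genes, with the 4 groups along the x axis, points for libraries A, B and C, and the mean ± SD (n = 3) as lines. For csr-1, prg-1, rde-1, ppw-1 and wago-3/ppw-2 all 3 CSR-1 IPs lie above every other library, while alg-1 and alg-2 stay under 27 CPM in all 12 libraries.

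The genes fell into 3 kinds of pattern. csr-1, rde-1 and ppw-1 were high in the CSR-1 IP and low in the WAGO-1 P3G IP. prg-1 and wago-3/ppw-2 were high in the CSR-1 IP. In the WAGO-1 P3G IP they stayed near their input level per counted read (ratios of 0.817 and 0.909), but not relative to all reads (2.08 and 2.31). alg-1 and alg-2, the microRNA Argonaute genes, drew few reads in any group.

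CSR-1, the essential Argonaute of germline-expressed genes, was also the bait of the first strain. Reads on its own gene stood at 744, 741 and 753 CPM in CSR-1 inputs A, B and C and at 2604, 2402 and 2342 CPM in the matching IPs. For WAGO-1 P3G they stood at 509, 506 and 586 CPM in the inputs and at 108, 110.1 and 114 CPM in the IPs. The 4 groups did not overlap one another, with the CSR-1 IP highest and the WAGO-1 P3G IP lowest. Reads on csr-1 rose with CSR-1 by log2 2.14 ± 0.10 (SE, n = 3 and 3, edgeR adjusted p = 5.75e-15), a fitted 4.41-fold, beside a plain CPM ratio of 3.28. With WAGO-1 P3G they fell by 1.67 ± 0.11 on the log2 scale (adjusted p = 3.56e-12 from edgeR). The size of that fall depended on the scaling, with a ratio of 0.208 per counted read and 0.530 relative to all reads.

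rde-1 codes for the Argonaute that takes up primary small RNAs from foreign double-stranded RNA. Its reads were sparse in the inputs, with 28, 41 and 40 counts in CSR-1 inputs A, B and C (69.2, 76.9 and 107 CPM). The CSR-1 IPs held 1054, 1002 and 1014 CPM. The WAGO-1 P3G inputs had 47.1, 50.9 and 95.8 CPM and the IPs 14.9, 19.5 and 15.3 CPM. The CSR-1 IPs lay about an order of magnitude above all other libraries, and the inputs of the strains overlapped. The rise with CSR-1 was log2 4.04 ± 0.17 (SE, n = 3 and 3, edgeR adjusted p = 5.08e-16), a fitted 16.4-fold, which was rank 26 of the 9536 tested identifiers. With WAGO-1 P3G, reads on rde-1 fell by 1.38 ± 0.24 on the log2 scale (adjusted p = 2.39e-05 from edgeR). Without WAGO-1 P3G input C, the highest of the inputs of that strain, this value was log2 -0.67 (adjusted p = 0.0439 from edgeR), and relative to all reads the ratio was 0.657 and the groups overlapped.

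ppw-1 belongs to the WAGO branch and is needed for efficient RNA interference in the germline. Its reads stood at 148, 144 and 174 CPM in CSR-1 inputs A, B and C and at 469.6, 480.2 and 500.03 CPM in the IPs. The WAGO-1 P3G inputs had 177, 192 and 180.3 CPM and the IPs 50.9, 48.8 and 57.5 CPM. The IPs of the strains lay on opposite sides of all inputs. Reads on ppw-1 rose with CSR-1 by log2 2.06 ± 0.12 and fell with WAGO-1 P3G by 1.21 ± 0.13 on the log2 scale (edgeR adjusted p = 1.52e-13 and 2.17e-08). The ratio with WAGO-1 P3G was 0.287 per counted read but 0.729 relative to all reads.

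prg-1 codes for the Piwi protein that carries piRNAs in the germline, and its gene drew the most reads of the 7 in every group. The levels were 1331, 1369 and 1354 CPM in CSR-1 inputs A, B and C and 4236, 3474 and 3633 CPM in the IPs, where prg-1 ranked 7 of 20134 identifiers by mean CPM. The WAGO-1 P3G inputs had 2324, 2460.4 and 2329 CPM and the IPs 1819, 1884 and 2108 CPM. The CSR-1 IPs were again above all other libraries, and CSR-1 IP A was the highest of them. Reads on prg-1 rose with CSR-1 by log2 1.91 ± 0.11 (edgeR adjusted p = 1.86e-13), a value of 1.52 without CSR-1 IP A. Their direction in the WAGO-1 P3G IP depended on the scaling. The fit gave log2 0.30 ± 0.11 (edgeR adjusted p = 0.0172), and without TMM factors it gave -0.29 (edgeR adjusted p = 0.0154). The ratio was 0.817 per counted read but 2.08 relative to all reads.

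wago-3/ppw-2 codes for a germline WAGO protein that is altered, as WAGO-1 is, in the WAGO-1 P3G strain. Its reads stood at 758, 761 and 726 CPM in CSR-1 inputs A, B and C and at 1629.7, 1715 and 1639 CPM in the CSR-1 IPs. They stood at 979.6, 958 and 1008 CPM in the WAGO-1 P3G inputs and at 908, 864 and 904 CPM in the IPs of that strain, so that the CSR-1 IPs were the highest libraries and the other groups lay closer together. The rise with CSR-1 was log2 1.57 ± 0.09 (edgeR adjusted p = 1.56e-13), the smallest of the 5 called there. With WAGO-1 P3G the fit gave log2 0.46 ± 0.09 (edgeR adjusted p = 1.02e-04), and without TMM factors it gave -0.14 (edgeR adjusted p = 0.180). The ratio was 0.909 per counted read but 2.31 relative to all reads. As for prg-1, no direction holds under every scaling. The value lay above the median of all features with TMM factors (0.12) and without them (-0.48), but below it with no filter on low counts (1.00 against 1.09, and 0.85 for prg-1). Leaving out 1 library gave log2 0.53 to 0.78 for wago-3/ppw-2 and 0.34 to 0.66 for prg-1. The values from 0.59 up came without any 1 of the 6 input libraries, those of the CSR-1 strain included.

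alg-1 and alg-2 code for the Argonautes that carry microRNAs. Counts on alg-1 were 8, 5 and 3 in CSR-1 inputs A, B and C, 48, 20 and 27 in the IPs, 4, 9 and 7 in the WAGO-1 P3G inputs and 32, 37 and 48 in the WAGO-1 P3G IPs. Counts on alg-2 were 5, 4 and 3, then 64, 27 and 34, then 5, 4 and 3, then 100, 97 and 110 in the same order. In CPM this was 8.66 ± 0.998 for alg-1 and 11.4 ± 1.57 for alg-2 in the CSR-1 IPs, each overlapping its own input. With CSR-1 neither was called, at log2 -0.04 (95% interval -0.90 to 0.81) for alg-1 and 0.76 (-0.05 to 1.57) for alg-2. Leaving out CSR-1 input A gave a call for alg-2 (log2 1.17, adjusted p = 0.0418 from edgeR). So did leaving out any 1 of WAGO-1 P3G inputs A, B or C (log2 0.93 to 0.94). The fit with no filter on low counts called alg-2 too (log2 1.22, adjusted p = 0.0405 from edgeR). With WAGO-1 P3G, alg-1 fell by 1.45 ± 0.41 on the log2 scale (edgeR adjusted p = 0.00344). That call ended without WAGO-1 P3G input B (log2 -0.82) or C (-1.14) and with no filter on low counts (-0.90), and relative to all reads the groups overlapped. alg-2 was at log2 0.67 there (95% interval -0.12 to 1.47). It was called, at log2 0.98 to 1.18, without WAGO-1 P3G input A or any 1 of the CSR-1 inputs.

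**Figure D2:**
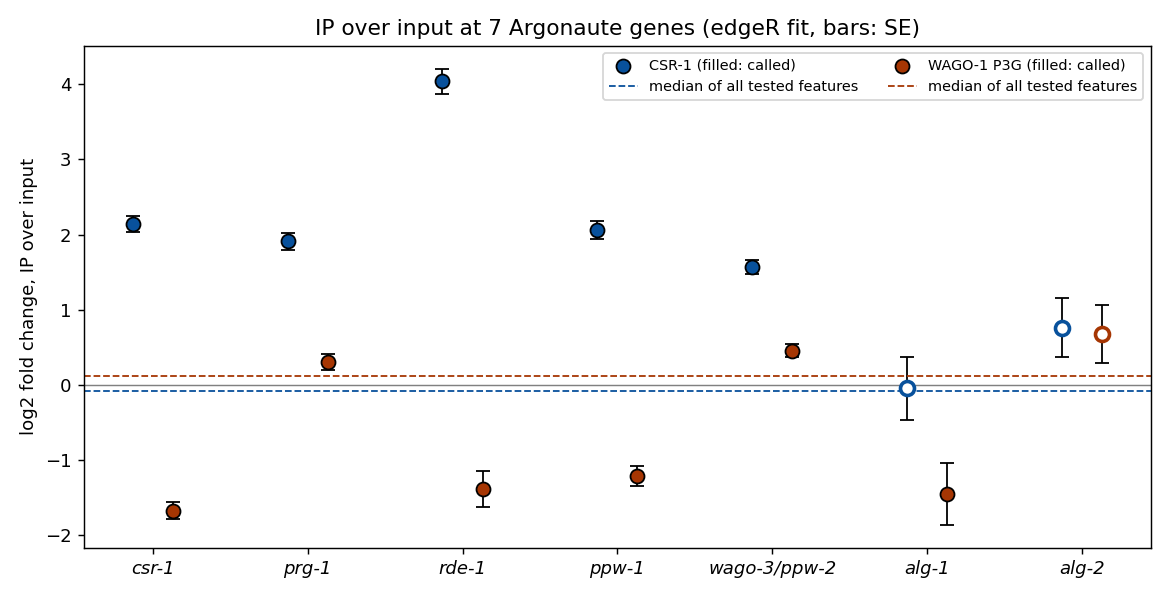
Log2 fold change of IP over input (y axis, edgeR fit) for the 7 genes in the CSR-1 strain (blue) and the WAGO-1 P3G strain (brown), with bars for the SE, filled points for called genes and dashed lines at the median of all 10822 tested features (-0.08 and 0.12). rde-1 stands highest with CSR-1 at 4.04, and csr-1, rde-1, ppw-1 and alg-1 lie below 0 with WAGO-1 P3G, at -1.67 to -1.21.

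In the CSR-1 IP against its input, 5 of 7 genes were called higher and 0 lower, where 37.5% of all tested features were called higher, 33.6% lower and 71.1% in either direction. The median over the 7 was log2 1.91, beside -0.08 over all features and 0.27 over gene identifiers. For WAGO-1 P3G, IP against input, 2 of 7 were called higher and 4 lower, where 34.1% of features were higher, 33.4% lower and 67.5% either. The 2 higher were prg-1 and wago-3/ppw-2, whose direction turned without TMM factors. The median was log2 -1.21, beside 0.12 over all features and -0.12 over gene identifiers. In the fit without TMM factors, a library's reads on the tested features set the scale. The all-feature median was then -0.52 in place of -0.08 for CSR-1, and -0.48 in place of 0.12 for WAGO-1 P3G. On that scale the falls in the WAGO-1 P3G IP were larger. They were log2 -2.27 for csr-1, -1.98 for rde-1, -1.80 for ppw-1 and -2.04 for alg-1. Of that strain's calls over all features, 28.7% were higher in place of 50.6% (42.6% in place of 52.8% for CSR-1). Relative to all reads these falls were smaller, with plain ratios of log2 -0.92, -0.61, -0.46 and -0.71 in that order. There rde-1 and alg-1 overlapped their inputs. Thinning all libraries to the smallest one gave smaller rises with CSR-1, from 0.87 for wago-3/ppw-2 to 3.35 for rde-1, and -0.79 for rde-1 with WAGO-1 P3G. csr-1, rde-1 and ppw-1 held their directions and calls with both baits in each of 21 alternative fits.

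Whether the baits differed in what they recovered was read from the difference between the log2 enrichments, WAGO-1 P3G minus CSR-1. It was lower and called for 6 of 7 genes and higher for 0, where 40.0% of all features were called lower, 33.9% higher and 73.9% either. rde-1 had a difference of log2 -5.42 ± 0.33 (edgeR adjusted p = 2.22e-13), rank 9511 of the 9536 identifiers, csr-1 of -3.81 ± 0.15, and ppw-1 of -3.27 ± 0.18. For prg-1 it was -1.61 ± 0.16 and for wago-3/ppw-2 -1.11 ± 0.13. The median difference was -0.34 over all features and -0.76 over gene identifiers. Of the tested identifiers, 37.0% lay below prg-1, 40.4% below alg-1 and 44.8% below wago-3/ppw-2, so these 3 genes lay nearer the middle. Thinned libraries gave -4.14 for rde-1, -2.91 for csr-1, -2.55 for ppw-1, -0.90 for prg-1 and -0.53 for wago-3/ppw-2. The difference of alg-1, log2 -1.40 ± 0.56 (edgeR adjusted p = 0.0270), lost its call in 14 of 19 alternatives, among them the loss of CSR-1 input B or C, WAGO-1 P3G input B or C, or any of the 6 IP libraries (log2 -0.88 to -1.27). That of alg-2 was -0.09 (95% interval -1.28 to 1.11).

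**Figure D3:**
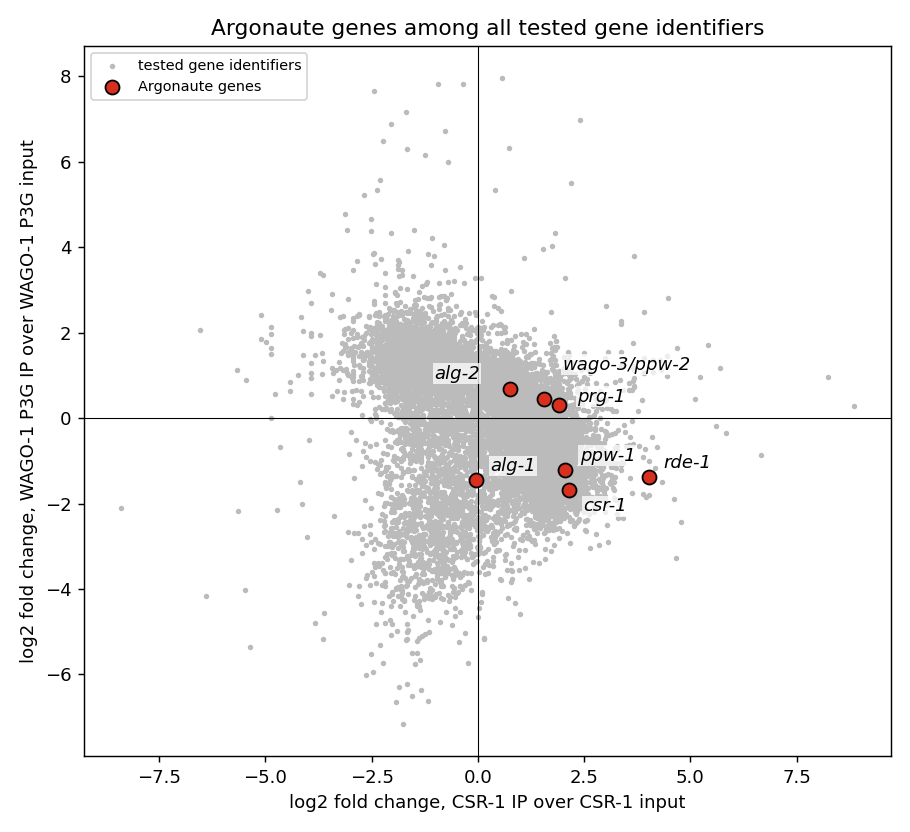
Each grey point is 1 of the 9536 tested gene identifiers, placed by its log2 fold change of CSR-1 IP over CSR-1 input (x axis) and of WAGO-1 P3G IP over WAGO-1 P3G input (y axis), and the 7 Argonaute genes are in red. csr-1, rde-1 and ppw-1 lie at the lower right, prg-1 and wago-3/ppw-2 at the right near 0 on the y axis.

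A direct comparison of the IPs leaves the inputs and their enrichment kit aside, and it shares its libraries with the values above. Per counted read, the WAGO-1 P3G IPs held 61.8 times less on rde-1 than the CSR-1 IPs, 22.1 times less on csr-1 and 9.23 times less on ppw-1. They held 1.95 times less on prg-1 and 1.86 times less on wago-3/ppw-2, and these 5 groups of values did not overlap. The fit called 6 of 7 lower and 0 higher, where 44.5% of features were called lower, 42.3% higher and 86.9% either. The median was log2 -0.09 over all features and -0.39 over gene identifiers. The log2 values were -5.86 ± 0.15 for rde-1, -4.37 ± 0.11 for csr-1, -3.11 ± 0.10 for ppw-1, -0.88 ± 0.11 for prg-1 and -0.80 ± 0.08 for wago-3/ppw-2 (edgeR adjusted p = 8.88e-22 to 2.55e-08). Leaving out 1 library gave -0.79 to -0.39 for prg-1 and -0.71 to -0.37 for wago-3/ppw-2 (-0.39 and -0.43 without CSR-1 IP A). Both calls ended in thinned libraries (-0.12 and -0.18), where rde-1, csr-1 and ppw-1 were at -4.56, -3.41 and -2.34. alg-1 had log2 -0.82 ± 0.25 (edgeR adjusted p = 0.00383), a call that ended without any 1 of the 6 IP libraries (-0.27 to -0.57), and with median-of-ratios factors (-0.53), DESeq2 (-0.52) or identifiers alone (-0.50). alg-2 was not called at 0.18 (95% interval -0.23 to 0.58), but was called higher with median-of-ratios factors (log2 0.47, adjusted p = 0.0284 from edgeR) and with identifiers alone (0.50, adjusted p = 0.0194).

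The inputs showed what differed between the strains before any IP. On csr-1 the WAGO-1 P3G inputs held 534 ± 45.3 CPM against 746 ± 6.58 in the CSR-1 inputs, log2 -0.56 ± 0.11 (edgeR adjusted p = 2.68e-04). On prg-1 they held 2371 ± 77.3 against 1351 ± 18.9 CPM, log2 0.73 ± 0.11 (adjusted p = 1.25e-05). The csr-1 reads were lower also relative to all reads, by a ratio of 0.444, but those on prg-1 were then 1.09 times higher, with overlapping groups. wago-3/ppw-2, whose gene is altered in the WAGO-1 P3G strain, had log2 0.31 ± 0.10 (edgeR adjusted p = 0.0133), a CPM ratio of 1.31 that became 0.814 relative to all reads. The wago-3/ppw-2 call ended without CSR-1 input A or C, or without WAGO-1 P3G input A, B or C (log2 0.23 to 0.27), and also with identifiers alone (0.23) or no filter on low counts (0.33). rde-1 was at log2 -0.44 (95% interval -0.97 to 0.08) and called without WAGO-1 P3G input C (-0.89, adjusted p = 0.0188 from edgeR). ppw-1, alg-1 and alg-2 were not called, with intervals of -0.15 to 0.47, -0.45 to 1.62 and -0.87 to 1.39. In all, 2 of 7 were called higher and 1 lower, where 19.7% of features were called higher, 18.7% lower and 38.4% either, so the share of members is near the background.

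**Figure D4:**
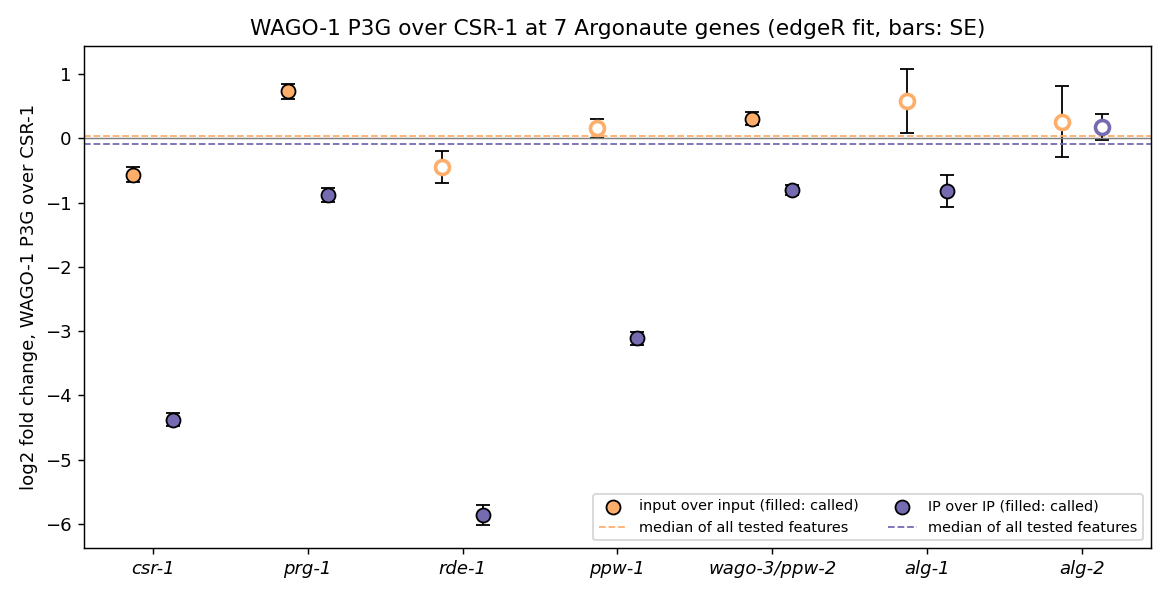
Log2 fold change of WAGO-1 P3G over CSR-1 (y axis, edgeR fit, bars for the SE) for the 7 genes between inputs (orange) and between IPs (purple), with filled points for called genes and dashed lines at the median of all tested features. Between inputs every value lies between -0.56 and 0.73, and between IPs rde-1, csr-1 and ppw-1 reach -5.86, -4.37 and -3.11.

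The split of reads among the 7 genes within a library does not depend on any scaling between libraries. csr-1 took 24.0% ± 0.156 of them in the inputs of the CSR-1 strain and 26.0% ± 0.404 in its IPs, then 12.8% ± 0.945 in the WAGO-1 P3G inputs and 3.67% ± 0.102 in the WAGO-1 P3G IPs (SD, n = 3 each). rde-1 took 2.71% ± 0.626, 10.9% ± 0.306, 1.54% ± 0.625 and 0.549% ± 0.0978 in the same order. These groups did not overlap for csr-1, and for rde-1 only the inputs of the strains did. prg-1 took 43.5% ± 0.472 and 40.1% ± 2.07 in the CSR-1 strain and 56.9% ± 1.72 and 64.0% ± 1.58 in the WAGO-1 P3G strain.

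Ratios of reads between pairs of genes are likewise free of such scaling. For each read on prg-1 there were 0.554 ± 0.0166, 0.443 ± 0.0549, 0.415 ± 0.0226 and 0.462 ± 0.0351 reads on wago-3/ppw-2 in CSR-1 inputs, CSR-1 IPs, WAGO-1 P3G inputs and WAGO-1 P3G IPs. The CSR-1 inputs lay above the other groups, which overlapped one another. For csr-1 the ratio to prg-1 was 0.552 ± 0.00949, 0.650 ± 0.0387, 0.225 ± 0.0236 and 0.0574 ± 0.00283, with no overlap between any of the groups. The ratio of rde-1 to csr-1 was alike in CSR-1 inputs (0.113 ± 0.0259), WAGO-1 P3G inputs (0.119 ± 0.0389) and WAGO-1 P3G IPs (0.149 ± 0.0237) within overlapping or adjoining ranges. It was 0.418 ± 0.0140 in the CSR-1 IPs, above all other libraries.

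**Figure D5:**
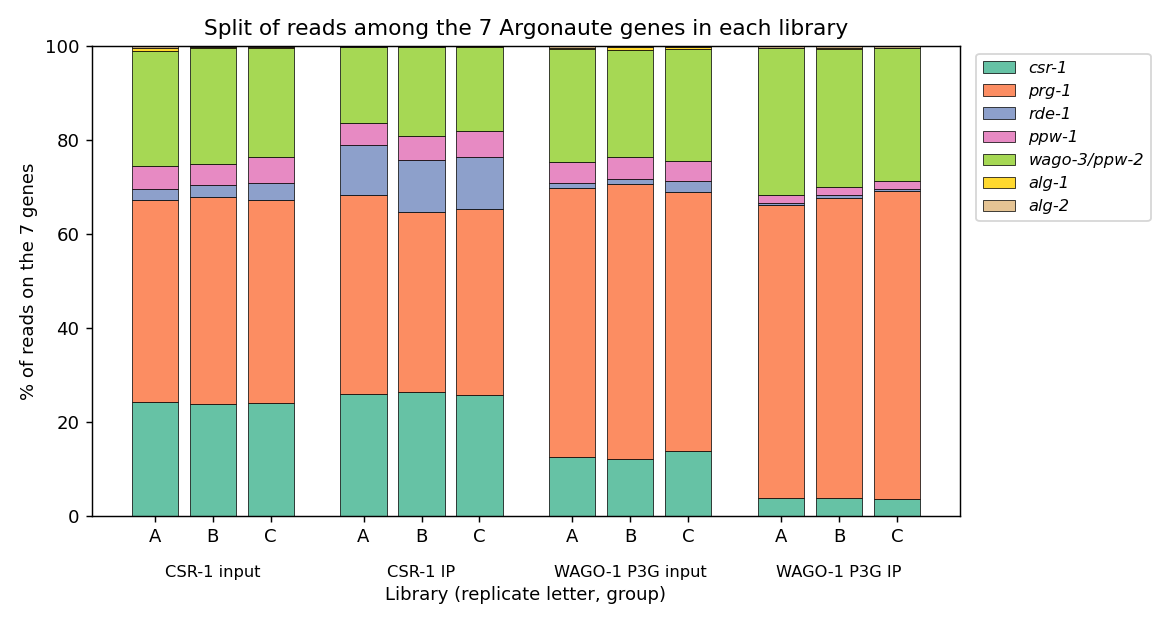
Stacked bars give the percentage of reads on the 7 Argonaute genes (y axis, 0 to 100) that fell on each gene in each of the 12 libraries. The csr-1 share is 24.0% and 26.0% in the CSR-1 groups and 12.8% and 3.67% in the WAGO-1 P3G groups, and the rde-1 share is visible mainly in the CSR-1 IPs at 10.9%.

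Between genes, levels were set side by side per kilobase of genomic span, introns included, since exon lengths were not used here. In the CSR-1 inputs the order was prg-1 (445 ± 6.22 CPM per kb), wago-3/ppw-2 (201), csr-1 (152 ± 1.35), ppw-1 (32.7 ± 3.41), rde-1 (22.7 ± 5.40), alg-1 (1.83 ± 0.947) and alg-2 (1.39 ± 0.398). Only alg-1 and alg-2 overlapped as neighbours, and the same held in the WAGO-1 P3G inputs, with the same order. In the CSR-1 IPs csr-1 (501 ± 28.0 CPM per kb) stood above wago-3/ppw-2 (446 ± 12.6), and rde-1 (275 ± 7.33) above ppw-1 (101 ± 3.24), with no overlap of neighbours. For the WAGO-1 P3G IPs the order of the inputs held for the first 5 genes, from 637 ± 49.9 CPM per kb for prg-1 to 4.44 ± 0.674 for rde-1.

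Exact permutation tests of log2 CPM, 2-sided, were run for each gene in the 4 comparisons between groups. The exact p was 0.1, the smallest that 3 against 3 libraries allow, in 21 of 28 cases, and 0.3 to 0.8 in the other 7, so none could pass 0.05. The 21 cases are those in which the groups did not overlap: 5 of 7 genes for the CSR-1 IP (69.8% of all features), 6 for the WAGO-1 P3G IP (71.9%), 4 between the inputs (48.9%) and 6 between the IPs (87.1%). Relative to all reads, the groups did not overlap for 6 genes with the CSR-1 IP (68.5% of all features), 5 with the WAGO-1 P3G IP (78.3%), 4 between the inputs (54.3%) and 6 between the IPs (87.3%).

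Among all tested identifiers, those most like csr-1 over the 12 libraries were WBGene00021698 and WBGene00003218. The Pearson correlation of log2 CPM, here scaled with TMM factors, was 0.999 for each. Those most like wago-3/ppw-2 were WBGene00011308 (0.990) and WBGene00013422 (0.984). Among the members themselves the correlation was 0.974 between csr-1 and ppw-1, 0.964 between csr-1 and rde-1, 0.971 between prg-1 and wago-3/ppw-2, and -0.334 between alg-1 and alg-2. The 12 points come from 4 groups of 3 and share their libraries' depth and composition, so these values describe the group pattern and carry no test.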

How the data were processed

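The authors deposited raw counts, with no normalization, for 12 libraries. HTSeq 0.11.2, cutadapt 2.3, Bowtie 1.2.3, SAMtools 1.9 and build ce11 are named in the submitters' processing notes. The 5 summary entries were left out of tests. Reads on no feature made up 19.9% to 74.1% of a library. Groups follow the titles, which parts of the free-text descriptions do not match.

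Counts were tested with edgeR 4.0.16 (R 4.3.3) by its quasi-likelihood F test, after filterByExpr and with TMM factors (1 mean per group, 8 residual degrees of freedom, Benjamini-Hochberg over 10822 features). The SE is the size of log2 divided by the square root of F. The fit was also run on simulated counts in which few features changed, and only in the CSR-1 IP. That run cannot speak to the scaling between these groups, where many features were called. DESeq2 1.42.0, other scalings, filters, thinning, blocks and the loss of each library were alternatives.

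The 7 genes, the lists and the tests were chosen with earlier results of these data known. Named by rule were the 7 genes, the 2 identifiers most correlated with csr-1 and with wago-3/ppw-2 (prior count 2), and intervals overlapping members or other Argonaute genes.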

Additional observations from a re-analysis of the deposited data

Results flagged for a closer look

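The enrichments of the baits differed, by the fitted interaction, for 6 of the 7 Argonaute genes, where 73.9% of all tested features were called. As log2 IP over input in the WAGO-1 P3G strain minus that in the CSR-1 strain, the values were -5.42 for rde-1, -3.81 for csr-1, -3.27 for ppw-1, -1.61 for prg-1, -1.40 for alg-1 and -1.11 for wago-3/ppw-2. The median over gene identifiers was -0.76. For csr-1, rde-1 and ppw-1 the IP libraries lay above every input with CSR-1 and below every input with WAGO-1 P3G in CPM; relative to all reads, rde-1 with WAGO-1 P3G overlapped its input. The value of alg-1 lost its call in 14 of 19 alternatives. Strain and bait cannot be told apart here.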

How the results depend on the processing

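Over 35 gene values under 672 alternatives, 609 kept their direction and side of the threshold, 35 lost their call, 13 gained one and 15 changed sign. TMM factors of the CSR-1 IPs were 0.798 to 0.911 in full and 1.22 to 1.26 once every library was thinned to 334088 reads, which changed both depth and the features kept. Thinning left 4786 features called in place of 7696 for CSR-1, 4374 in place of 7304 for WAGO-1 P3G, 5194 in place of 9402 between IPs, where 3 in place of 6 Argonaute genes were called, and 4832 in place of 7999 for the difference. Then 6615 features were tested, and alg-1 and alg-2 were not among them. alg-1 was thus among the 6 but not tested in thinned libraries. Without the filter 15728 were called between IPs, of 45440. Signs turned without TMM factors for prg-1 (log2 -0.29) and wago-3/ppw-2 (-0.14) in the WAGO-1 P3G IP. alg-1 with CSR-1 became 0.42 without the filter and 0.13 to 0.59 without CSR-1 input A or any 1 WAGO-1 P3G input (-0.47 to 0.59 over all libraries left out). alg-2 became -0.044 between IPs with those groups alone. For the difference it became 0.14 with median-of-ratios factors, 0.14 with DESeq2 and 0.31 with identifiers alone. It became 0.08 to 0.25 without CSR-1 input B or C or WAGO-1 P3G input A or B (-0.19 to 0.25 over the input libraries left out). Without any 1 of the IP libraries alg-2 did not pass the filter and was not tested. Relative to all reads, an alternative chosen after seeing the data, 21 of 28 gene comparisons did not overlap, as per counted read (68.5% to 87.3% of all features for the IP comparisons and 54.3% between inputs), but 4 turned direction (prg-1 and wago-3/ppw-2 with WAGO-1 P3G, ppw-1 and wago-3/ppw-2 between inputs), 3 began to overlap (rde-1 and alg-1 with WAGO-1 P3G, prg-1 between inputs) and 3 began to separate (alg-2 with each bait, rde-1 between inputs). The causes were not tested. With a library left out, 5 to 6 Argonaute genes were called with CSR-1, 5 to 7 with WAGO-1 P3G, 2 to 3 between inputs, 5 to 6 between IPs and 5 to 6 for the difference. The replicate letters did not meet the rule for pairing, a correlation over 0.1 in every pair: same-letter deviations correlated at 0.418, 0.292 and 0.0429 in the CSR-1 strain, where inputs A and B but not C correlated best with the IP of their own letter, and at -0.0326 to 0.0242 in the other. With the letter as a replicate block 7720, 7346, 4294, 9398 and 8047 features were called in the 5 comparisons, with a block within strain 7863 for CSR-1, 7537 for WAGO-1 P3G and 8176 for the difference, and neither block changed a call of an Argonaute gene. Depth limits rde-1, alg-1 and alg-2, with 3 to 41 counts per input.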

Other observations

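Other Argonaute genes could be looked for only through intervals, since identifiers were not paired with symbols beyond the 7. Of 17 genes listed, 16 of them other Argonaute genes and the last the protease gene dpf-3, 6 had an overlapping interval, 35 in all, and 1 of these was tested. That interval, II:5815457-5815769 in wago-5, lies in a gene of the WAGO branch, and its directions were opposite to those of csr-1, rde-1 and ppw-1 with both baits. It held 54.3, 78.8 and 61.7 CPM in CSR-1 inputs A, B and C and 16.1, 17.0 and 24.2 CPM in the CSR-1 IPs. In the WAGO-1 P3G strain it held 47.1, 56.9 and 59.2 CPM in the inputs and 117, 134 and 117 CPM in the IPs. The interval fell with CSR-1 by 1.37 ± 0.21 and rose with WAGO-1 P3G by log2 1.77 ± 0.20 (n = 3 per group, edgeR adjusted p = 3.62e-06 and 2.52e-08), a difference of log2 3.13 ± 0.29. Whether its reads come from wago-5 is not known. The other 34 intervals held at most 29 counts over all 12 libraries, and 23 of them held 0.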
